A study of Mus musculus with 40 samples.

Results

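The enzymes that write and erase methylation of lysine 4 of histone H3 (H3K4) were followed in mouse oocytes that lack the H3K9 methyltransferase G9A or both G9A and GLP. The set held 9 genes, 5 on the writer side (Mll1, Setd1a, Setd1b, Setd2 and Cxxc1) and 4 erasers (Kdm1a, Kdm1b, Kdm5a and Kdm5b). A gene was taken where a locus of the RNA table carried its symbol and lay on the same strand as the gene. This found 6 of the 9 genes, with 1 locus each, among 38540 loci in the table, of which 15023 overlap a gene on the same strand. Kdm1a, Kdm1b and Kdm5a were not found in this way, since the table names the locus at their position after a neighbouring gene (Luzp1, Tpmt and Ccdc77). They were added after the table was seen, because the locus and the RefSeq gene covered each other by at least 80% on the same strand, and they are given apart in the counts. Setd2 was listed with the writers, but it encodes the enzyme that trimethylates lysine 36 of histone H3 (H3K36) and not an H3K4 enzyme.

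The oocytes were at the germinal vesicle stage, fully grown and before meiotic maturation, and came from mice aged 22 to 25 days by manual dissection. Pools of 100 to 200 oocytes gave each library. RNA was measured in 11 libraries. There were 3 controls and 3 G9a conditional knockouts (G9a cKO) whose titles carry the prefix GKAO, and 3 controls and 2 G9a-Glp conditional double knockouts (cDKO) with the prefix GKAQ. H3K9me2 was measured by low-input native chromatin immunoprecipitation with 250 ng of antibody, in 2 libraries each of control, G9a cKO and cDKO. In the G9a cKO the label names a deletion of G9a, whose gene is Ehmt2, and in the cDKO deletions of G9a and of Glp, whose gene is Ehmt1. What the prefixes stand for, the Cre line and the strain are not given in the sources used here. Nothing says that libraries came from separate animals, so the p-values measure the spread between these libraries, which may be technical. In such pools, fewer oocytes with a transcript and less of it per oocyte cannot be told apart.

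H3K4 methylation marks promoters and enhancers, and in growing oocytes it also spreads in broad domains over regions that are not transcribed. The SETD1 enzymes and the MLL enzymes work in complexes built on a shared core, and CXXC1 (CFP1) brings the SETD1 complexes to unmethylated CG sites. The KDM1 enzymes remove mono- and dimethylation and the KDM5 enzymes also trimethylation of H3K4, and KDM1B in oocytes is known for its part in DNA methylation at imprinted genes.

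CG sites are what the CXXC domains of CXXC1 and MLL1 bind when unmethylated, so they were counted in the 250 bases before the transcription start, as RefSeq gives them for GRCm38.p6. Of the 9 genes, 6 had an entry. In Setd1a, Setd2, Kdm1a, Kdm1b and Kdm5b these bases overlap the locus of the RNA table, and in Mll1 some lie within the RefSeq gene. The counts thus do not cover sequence before the gene and locus alone. The motif CG, which is the same on both strands, was found 31 times in Setd2, 29 times in Mll1, 25 times in Setd1a, 22 times in Kdm1b, 21 times in Kdm1a and 13 times in Kdm5b. The median over all 32851 promoters was 6, and 92.1% held at least 1. As many as in Mll1 were held by 6.78% of promoters, and as many as in Kdm5b by 31.5%. The sequences of Mll1 and Kdm5b are shown because they belong to the genes found by symbol with few reads in controls, of which Mll1 alone was called in the cDKO. Each runs 5′ to 3′ on the strand of the gene and stops before the RefSeq gene and the locus begin. Capitals mark CG, 23 in the 187 bases of Mll1 at chr9:44881353-44881539 (minus strand) and 12 in the 242 bases of Kdm5b at chr1:134559928-134560169 (plus strand).
Mll1: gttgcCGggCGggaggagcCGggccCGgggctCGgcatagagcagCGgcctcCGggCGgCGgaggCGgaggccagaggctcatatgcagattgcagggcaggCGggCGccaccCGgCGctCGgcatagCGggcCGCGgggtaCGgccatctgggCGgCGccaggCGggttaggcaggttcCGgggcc
Kdm5b: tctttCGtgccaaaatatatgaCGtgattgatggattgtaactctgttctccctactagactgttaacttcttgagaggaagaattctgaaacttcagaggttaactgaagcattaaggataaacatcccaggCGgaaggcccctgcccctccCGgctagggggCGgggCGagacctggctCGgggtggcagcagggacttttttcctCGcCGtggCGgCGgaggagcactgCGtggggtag

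The libraries held 1458868 to 2399680 reads, and values are reads per 1000000 of the library total (RPM). Of 11 oocyte markers, all 11 reached 10 RPM on average and their sum was 10100 to 12900 RPM. The 10 granulosa cell markers, of which 2 reached 10 RPM, summed to 184 to 195 RPM in GKAO controls, 136 to 162 in G9a cKO, 132 to 157 in GKAQ controls and 116 to 143 in cDKO. The 4 theca and stroma markers summed to at most 5 RPM, and the 2 blood markers that could be matched, of 5 listed, were at 0. In the cDKO 2 granulosa cell markers were called higher and none lower, and 4 oocyte markers higher and 2 lower. No granulosa cell marker and 1 oocyte marker, which was higher, were called in the G9a cKO. The part of granulosa cell RNA in the results was not tested. Ehmt1 was lower in the cDKO by a log2 fold change of -2.06 (SE 0.20, limma adjusted p = 1.09e-21). Ehmt2 gave 9 to 13 reads in GKAO controls and 8 to 30 in GKAQ controls. It gave 5, 11 and 2 reads in the G9a cKO and 5 in each cDKO library, with log2 fold changes of -1.55 (adjusted p = 0.0971) and -1.45 (adjusted p = 0.121). The library labelled G9a cKO replicate 2 thus held Ehmt2 reads within the control range. Which exons the deletions remove is not given in the sources used here.

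**Figure D1:**
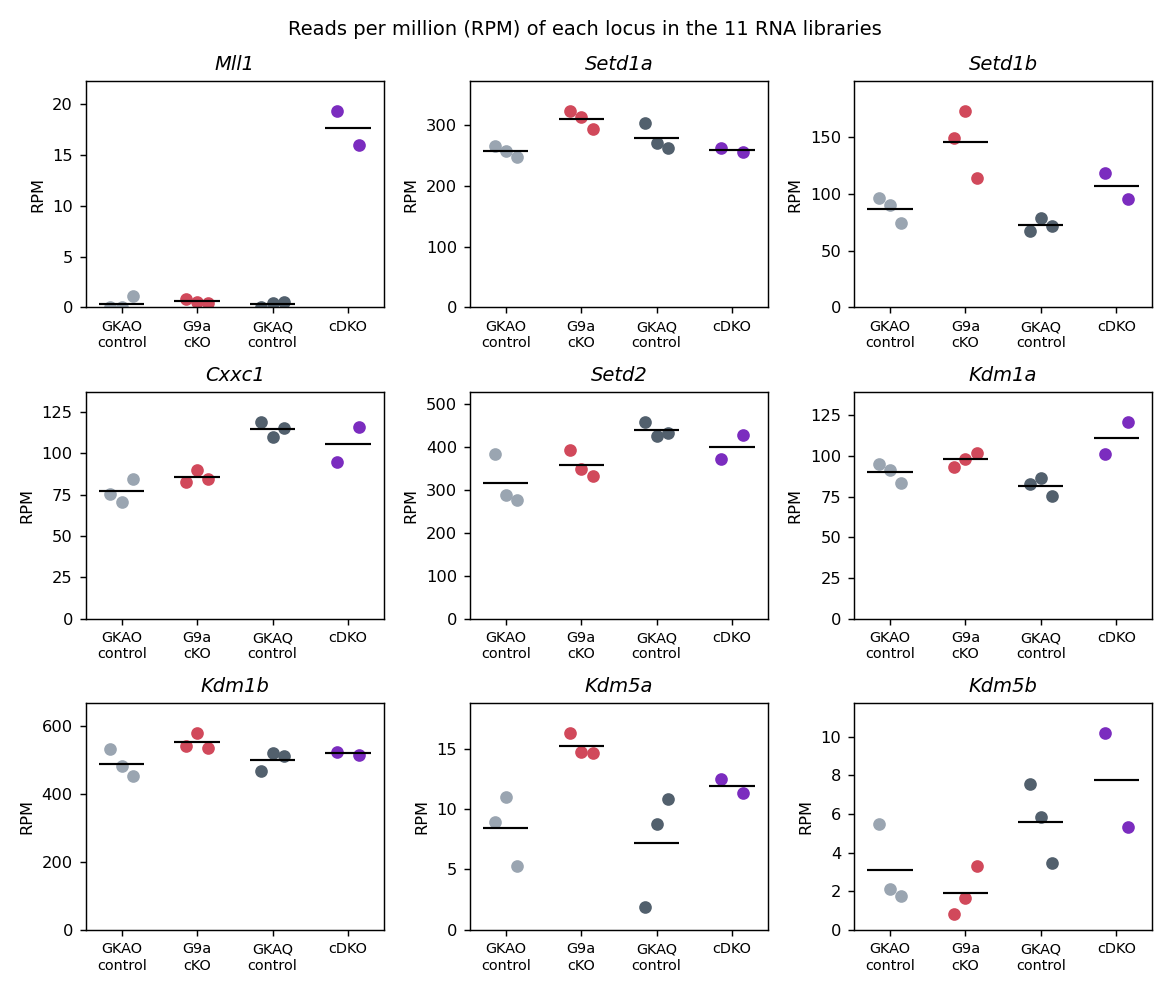
RPM of each of the 9 genes in the 11 RNA libraries, each panel with its own axis from 0, with points for libraries and a line for the group mean. Mll1 stands at 16.0 and 19.4 RPM in the cDKO and at no more than 1.17 RPM elsewhere, and Setd1b is higher in both mutants than in the controls of the same prefix.

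Among the writers, Mll1 was called higher in the cDKO and Setd1b in both mutants. The Setd1b call in the cDKO held in 6 of 14 alternative fits. In the G9a cKO 1 of the 6 genes found by symbol was called (adjusted p under 0.05), where 1.79% of all 38540 loci and 5.22% of the 9091 loci with a mean of at least 10 RPM were called. In the cDKO 2 of the 6 were called, against 6.34% and 15.8%. None of the 3 genes matched by position was called in either mutant. The median log2 fold change of the 6 was 0.176 in the G9a cKO and 0.184 in the cDKO, beside 0.00769 and 0.05 over the loci of at least 10 RPM. Over all loci, most of them with few reads, it was -0.307 and 0.201. A locus with no reads in any library, on the other strand of Kdm5a, had -0.32 and 0.20. Such values follow library depth and the 0.9 read given to empty loci. The medians over all loci are thus no measure of a change in RNA.

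Mll1 encodes the H3K4 methyltransferase KMT2A (RefSeq symbol Kmt2a), known for its role at Hox genes. Its locus lies at chr9:44803355-44881274 on the minus strand (ENSMUSG00000002028) and overlaps no locus on the other strand. It gave 0, 0 and 2 reads in the GKAO controls, 2, 1 and 1 in the G9a cKO, and 0, 1 and 1 in the GKAQ controls. The cDKO libraries gave 34 and 27 reads, or 19.4 and 16.0 RPM, far above every other library. Measured against 3 reads in the shallowest GKAQ control, the cDKO mean was at least 9.38-fold higher. The fitted log2 fold change was 5.17 (SE 0.81, adjusted p = 2.85e-08), and it was called in 13 of 13 alternatives, with adjusted p from 7.43e-10 to 0.00753. Both groups of the G9a cKO comparison were at or under 3 reads, so the fitted value there (log2 -0.22, SE 0.72, adjusted p = 0.855) depends on the value set for empty loci and is no fold. The cDKO effect exceeded that of the G9a cKO by 5.39 log2 units (95% confidence interval 3.28 to 7.51, adjusted p = 0.000318), a comparison in which 1.08% of all loci and 3.34% of those of at least 10 RPM were called. Mll1 was the 1 gene of the 6 called there, and it was called in 17 of 17 alternatives, with adjusted p of 0.000316 to 0.0449. Among these 17, the fit without GKAQ control replicate 1 called 14705 loci in place of 417, so a call there says little about Mll1. The size of the Mll1 difference rests on the same empty loci, and on log2(RPM + 1) it was 3.54 (adjusted p = 0.0449).

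The rise was not seen in the nearest loci of at least 1 RPM on either side of Mll1, out to 174 kb. Arcn1, a coat protein gene 35.2 kb away, Ift46, a gene of ciliary transport 12.5 kb away, and Atp5l, which encodes a subunit of ATP synthase 31.8 kb away, changed in the cDKO by log2 0.08 (SE 0.09), -0.14 (SE 0.17) and 0.35 (SE 0.33), and none was called. Ube4a, a ubiquitin ligase gene 41.9 kb away, had -0.05 (SE 0.22). With few reads, a locus named after Treh 68.2 kb away had 0.22 (SE 0.76), and Mpzl3, 174 kb away, had -0.12 (SE 0.60). Loci farther away on the chromosome were not examined in this way. The table does not show where in the locus the Mll1 reads lay, so a full transcript and a shorter one starting inside the gene cannot be told apart. Of 10608 named loci of at least 1 RPM, those most like Mll1 in log2 RPM over the 11 libraries were Slc22a15, a transporter gene, with a Pearson r of 0.984, and Fxyd6, a regulator of the sodium pump, and Pcdh8, a protocadherin, each with 0.978. These values are a description, since the libraries fall into groups and r rests on the cDKO libraries standing above the rest. Slc22a15 and Pcdh8 reached 1 RPM on average only through the cDKO, so their likeness follows from being high there. Where these genes lie relative to Mll1 was not examined. Fxyd6 gave 96 and 97 reads in the cDKO and 14 to 30 elsewhere, while Pcdh8 gave 9 to 11 reads in the cDKO and at most 1 elsewhere. Slc22a15 gave 6 to 8 reads in the cDKO and at most 2 elsewhere.

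Setd1b encodes a catalytic subunit of the SETD1 complexes and lies at chr5:123142193-123168620 on the plus strand (ENSMUSG00000038384). It stood at 96.0, 90.1 and 74.4 RPM in the GKAO controls and at 149, 173 and 114 RPM in the G9a cKO. In the GKAQ controls it was at 67.2, 78.8 and 71.5 RPM and in the cDKO at 118 and 95.4 RPM. Every mutant library was above every control of its prefix, and the groups did not overlap. It rose 1.66-fold in the G9a cKO (log2 0.73, SE 0.14, adjusted p = 0.000108) and 1.47-fold in the cDKO (log2 0.55, SE 0.16, adjusted p = 0.0145). The G9a cKO call held in 13 of 15 alternatives (adjusted p 1.87e-06 to 0.181), and without replicate 2, which kept Ehmt2 reads, the log2 fold change was 0.60 (adjusted p = 0.0387). The cDKO call held in 6 of 14 alternatives (adjusted p 0.0108 to 0.431), and was lost without GKAQ control replicate 1 (log2 0.50, adjusted p = 0.0763), GKAQ control replicate 3 (0.54, 0.0528) or cDKO replicate 1 (0.40, 0.359). The effects of the mutants differed by log2 -0.18 (95% confidence interval -0.60 to 0.24, adjusted p = 0.581), which does not show that they were equal.

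All of the Setd1b locus lies inside a locus of the other strand, at chr5:123047373-123230871, that the table names after Tmem120b. That locus was also called, with log2 fold changes of 0.45 (SE 0.12, adjusted p = 0.0107) in the G9a cKO and 0.42 (SE 0.13, adjusted p = 0.0245) in the cDKO. Those calls held in 10 of 15 and 5 of 14 alternatives, with adjusted p up to 0.279 and 0.422. Whether reads were counted by strand is not given in the sources used here, so reads of either strand cannot be told apart. The RPM of the other strand minus the RPM of Setd1b was 57.1 to 72.7 in GKAO controls and 58.9 to 72.5 in the G9a cKO, ranges that overlap. It was 61.7 to 67.5 in GKAQ controls and 74.1 and 82.0 in the cDKO.

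Setd1a, the other catalytic subunit of the SETD1 complexes, lies at chr7:127776601-127803805 on the plus strand (ENSMUSG00000042308). It was at 266, 257 and 247 RPM in the GKAO controls and at 324, 313 and 293 RPM in the G9a cKO, so that the groups did not overlap. The log2 fold change of 0.27 (SE 0.10) did not pass the test over all loci (adjusted p = 0.139). The cDKO libraries were at 263 and 256 RPM, at or just under the lowest of the GKAQ controls at 304, 271 and 263 RPM (log2 -0.10, SE 0.11, adjusted p = 0.565). The difference between the mutants was log2 -0.38 (SE 0.14, adjusted p = 0.169).

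Setd2 and Cxxc1 differed between the 2 sets of controls and not by the test between mutants and controls. Between GKAQ and GKAO controls 2 of the 6 genes were called, where 3.87% of all loci and 14.8% of those of at least 10 RPM were called. This comparison shares its GKAO libraries with that of the G9a cKO and its GKAQ libraries with that of the cDKO. Title prefix and any batch that goes with it cannot be told apart. The median log2 fold change of the 6 was 0.307, beside 0.0136 over the loci of at least 10 RPM. Over all loci it was -0.235, which again follows library depth, since a locus with no reads in any library had -0.23.

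Cxxc1 encodes the CG-binding subunit of the SETD1 complexes (ENSMUSG00000024560). It was at 75.4, 70.7 and 84.4 RPM in the GKAO controls and at 110 to 119 RPM in the 3 GKAQ controls, 1.49-fold higher with no overlap (log2 0.58, SE 0.15, adjusted p = 0.00401). The G9a cKO libraries, at 82.7, 89.6 and 84.3 RPM, stood near the GKAO controls, and the cDKO libraries at 94.5 and 116 RPM near the GKAQ controls. The log2 fold changes in the mutants were 0.16 (SE 0.15, adjusted p = 0.452) and -0.13 (SE 0.16, adjusted p = 0.633). The control difference was called in 12 of 13 alternatives, with adjusted p of 0.00103 to 0.155.

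Setd2, whose product trimethylates H3K36, lies at chr9:110531915-110618633 on the plus strand (ENSMUSG00000044791). Its RPM were 382, 287 and 275 in the GKAO controls and 458, 424 and 432 in the GKAQ controls. Every GKAQ control was above every GKAO control, 1.41-fold on average (log2 0.49, SE 0.08, adjusted p = 1e-06), and the call held in 11 of 13 alternatives with adjusted p from 5.74e-09 to 0.311. The mutants stood at 392, 347 and 331 RPM (G9a cKO, log2 0.19, SE 0.08, adjusted p = 0.23) and 372 and 428 RPM (cDKO, log2 -0.13, SE 0.10, adjusted p = 0.565), overlapping their controls. Without GKAO control replicate 1, the highest of its group, the G9a cKO difference was log2 0.34 (adjusted p = 0.0269). It was 0.11 (adjusted p = 0.451) without GKAO control replicate 3 and 0.13 (adjusted p = 0.525) without G9a cKO replicate 1. A short locus of the other strand overlaps 2.3% of Setd2 at its start, at chr9:110531390-110533943, and its difference between the controls was larger. It gave 5, 5 and 6 reads in the GKAO controls and 39, 58 and 59 in the GKAQ controls (log2 3.03, SE 0.38, adjusted p = 6.44e-13). In the mutants it gave 14, 13 and 7 reads (G9a cKO) and 35 and 51 (cDKO).

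**Figure D2:**
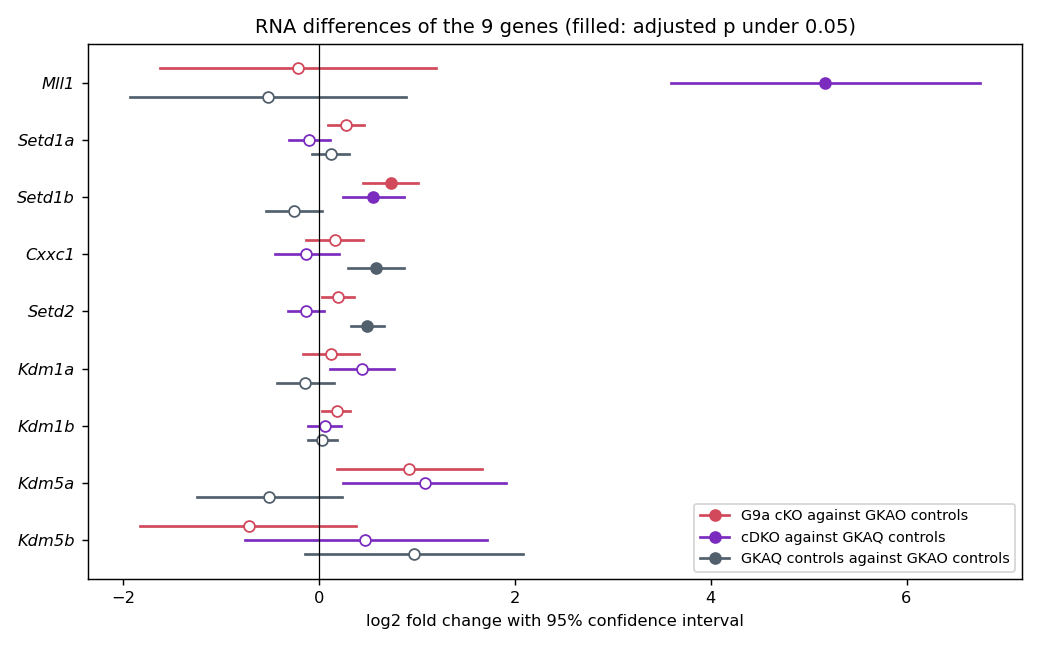
Log2 fold changes of the 9 genes with 95% confidence intervals in the 3 comparisons, with filled points at an adjusted p under 0.05. Mll1 in the cDKO stands at 5.17, Setd1b is filled in both mutants, and Cxxc1 and Setd2 are filled between the control sets alone.

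Of the erasers none was called in any of the 4 comparisons. Kdm1b, the H3K4 demethylase of growing oocytes, has its locus at chr13:47043277-47084600 on the plus strand. It was at 532, 481 and 452 RPM in GKAO controls, 541, 579 and 534 in the G9a cKO, 468, 520 and 510 in GKAQ controls and 524 and 513 in the cDKO. The G9a cKO libraries were all above their controls, by a small margin (log2 0.18, SE 0.07, adjusted p = 0.23). In the cDKO the difference was 0.06 (95% confidence interval -0.11 to 0.22, adjusted p = 0.669).

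Kdm1a, also known as LSD1, removes the same marks and has its locus at chr4:136550540-136612787 on the minus strand. The table names that locus after Luzp1, and 83.9% of it lies in Kdm1a. It was at 95.3, 91.1 and 83.2 RPM in GKAO controls and 93.1, 98.3 and 102 in the G9a cKO, which overlapped (log2 0.12, SE 0.15, adjusted p = 0.566). In the GKAQ controls it was at 83.0, 86.7 and 75.4 RPM and in the cDKO at 101 and 121 RPM, with no overlap. That difference of log2 0.44 (SE 0.16, 95% confidence interval 0.11 to 0.76) had an adjusted p of 0.0949, and of 0.0259 where the loci of at least 10 RPM alone were tested. Without cDKO replicate 2 it was log2 0.31 (adjusted p = 0.659).

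Kdm5a encodes a demethylase of trimethylated H3K4 and has its locus at chr6:120364062-120444574 on the plus strand, with few reads. It gave 13, 21 and 9 reads in GKAO controls and 39, 27 and 31 in the G9a cKO, or 8.39 ± 2.90 RPM (SD, n = 3) against 16.3, 14.7 and 14.6 RPM. The GKAQ controls gave 3, 21 and 22 reads and the cDKO 22 and 19, or 1.89, 8.75 and 10.8 against 12.5 and 11.3 RPM. Both mutants were above all their controls in RPM, with log2 fold changes of 0.92 (95% confidence interval 0.18 to 1.66, adjusted p = 0.23) and 1.08 (0.24 to 1.91, adjusted p = 0.121). Neither passed the test. The cDKO value rested on single controls. It was log2 0.29 (adjusted p = 0.639) without GKAQ control replicate 1, the library of 3 reads, and 1.55 (adjusted p = 0.0295) without GKAQ control replicate 3. With the title number as a block it was 0.36, from GKAQ control replicate 2 and cDKO replicate 2 alone. The G9a cKO value was 1.18 (adjusted p = 0.0309) with all 6 controls pooled and 0.62 (adjusted p = 0.361) without GKAO control replicate 3.

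Kdm5b, the other KDM5 enzyme of the set, lies at chr1:134560170-134634237 on the plus strand (ENSMUSG00000042207). It gave 3 to 8 reads in GKAO controls, 2 to 7 in the G9a cKO, 7 to 14 in GKAQ controls and 18 and 9 in the cDKO, with overlap in each comparison. The log2 fold changes were -0.72 (95% confidence interval -1.83 to 0.38, adjusted p = 0.358) in the G9a cKO and 0.47 (-0.76 to 1.71, adjusted p = 0.643) in the cDKO.

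The partners of these enzymes were read from a list of 40 further genes of H3K4 and H3K36 methylation, of which 34 could be matched, in 37 loci, and 32 had a locus of at least 10 RPM. In the G9a cKO limma called none of the 37 loci, where 1.79% of all loci and 5.22% of those of at least 10 RPM were called. In the cDKO 1 was higher and 3 were lower, 10.8% of the list beside 6.34% and 15.8%, so the share called lay between these backgrounds. In each mutant 9 of the 37, or 24.3%, had an unadjusted p under 0.05, beside 10.5% and 15.9% of all loci. Unadjusted shares over all loci are not like for like with this list, since most of its genes reached 10 RPM and most loci did not. The unadjusted share over the loci of at least 10 RPM was not counted. The median log2 fold change was 0.0165 in the G9a cKO and -0.0261 in the cDKO, beside 0.00769 and 0.05 over the loci of at least 10 RPM. None was called in the difference between the mutants, where 3 (8.11%) had an unadjusted p under 0.05, beside 13.3% of all loci.

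The genes that fell in the cDKO were Wdr5, a core subunit shared by the SETD1 and MLL complexes, Kdm6a, an H3K27 demethylase of some MLL complexes, and Nsd1, an H3K36 methyltransferase. Wdr5 was at 241, 265 and 278 RPM in the GKAQ controls and at 185 and 200 RPM in the cDKO (log2 -0.44, SE 0.12, adjusted p = 0.00478). Kdm6a was at 150, 145 and 147 RPM against 93.4 and 112 RPM (log2 -0.52, SE 0.14, adjusted p = 0.00781), and Nsd1 at 348, 345 and 367 RPM against 284 and 264 RPM (log2 -0.37, SE 0.10, adjusted p = 0.0105). No cDKO library of these genes reached its controls. Smyd3, a SET domain methyltransferase, rose at 1 of its 4 loci, from 35.8, 29.6 and 29.1 RPM to 59.2 and 55.1 RPM (log2 0.87, SE 0.23, adjusted p = 0.00477). Its only other locus with more than 1 read in any library had log2 0.14 (SE 0.21, adjusted p = 0.682). With all Smyd3 loci summed the log2 fold change was 0.49 (adjusted p = 0.0536). These calls held in 8 to 10 of 14 alternatives. Without cDKO replicate 1 those of Wdr5 (adjusted p = 0.0942), Kdm6a (0.237) and Smyd3 (0.0796) were lost, without cDKO replicate 2 that of Nsd1 (0.134), and without GKAQ control replicate 3 those of Wdr5 (0.0584) and Nsd1 (0.0789). In the G9a cKO the log2 fold changes were -0.12 for Wdr5, -0.26 for Kdm6a, -0.12 for Nsd1 and 0.27 for that locus of Smyd3, and none was called.

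**Figure D3:**
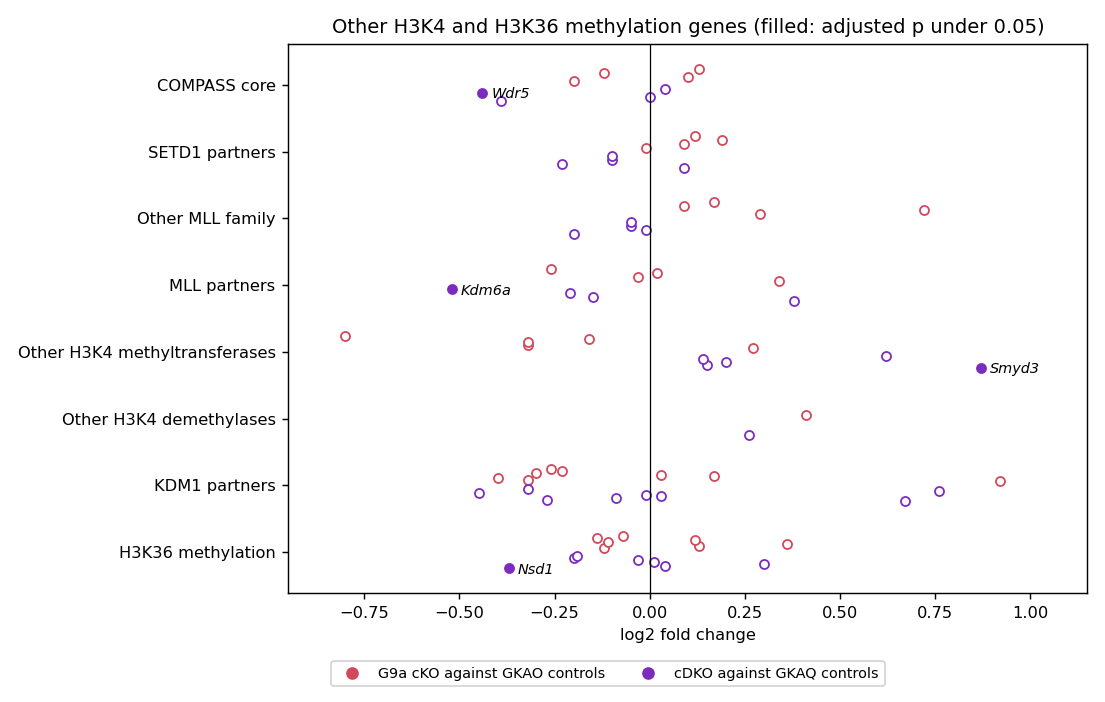
Log2 fold changes of the 37 loci of other H3K4 and H3K36 methylation genes in both mutants, grouped by role, with filled points at an adjusted p under 0.05. The 4 filled points, Wdr5, Kdm6a, Nsd1 and a locus of Smyd3, all belong to the cDKO.

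Of the other MLL enzymes, Mll2, Mll3, Mll5 and Wbp7 (RefSeq symbols Kmt2d, Kmt2c, Kmt2e and Kmt2b), none was called in either mutant. Their log2 fold changes in the cDKO were -0.20, -0.05, -0.01 and -0.05, beside 5.17 for Mll1. Between the control sets 4 genes of the list were called higher in GKAQ and 2 lower, 16.2% of its loci beside 14.8% of all those of at least 10 RPM. Among them were the SETD1 partners Bod1l (log2 0.55, adjusted p = 7.28e-06) and Bod1 (-0.45, adjusted p = 9.67e-05). Men1, which encodes menin of the MLL1 complex, was lower (-0.62, adjusted p = 0.00376), and Iws1, Hdac2 and Rcor3 were higher by 0.64, 0.61 and 1.74. All 6 calls were lost where limma was run with no trend and not robust, with adjusted p up to 0.449, and they held in 9 to 12 of 13 alternatives.

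H3K9me2, the mark that G9A and GLP place, was read over the gene bodies as RPM per 10 kb window. None of the 9 bodies was called in either mutant, where 12.6% and 5.35% of 14844 bodies were called. In G9a cKO none of the 9, and in cDKO 3, had an unadjusted p under 0.05, beside 27.6% and 22.4% of all bodies. Values scaled to each library show where the H3K9me2 reads lie and not how much of the mark there is. They were not corrected for input or IgG, so the mark and background reads cannot be told apart. The 6 libraries held 1109191 to 19128881 reads, and a body of the 9 genes gave 10 to 71 reads in a mutant library and 65 to 680 in a control.

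Over Mll1 the density was 4.05 and 3.95 RPM per window in controls, 3.71 and 4.21 in the G9a cKO and 4.58 and 3.84 in the cDKO, which overlap. The log2 difference in the cDKO, where its RNA rose, was 0.07 (95% confidence interval -0.28 to 0.41, adjusted p = 0.847), and in the G9a cKO -0.02 (-0.36 to 0.32, adjusted p = 0.958). The window with its start held 21 and 58 reads in controls, 7 and 5 in the G9a cKO and 3 and 9 in the cDKO. In controls 60.9% of all bodies had a lower density than Mll1.

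Setd2, Kdm5a and Kdm1b had low densities in controls, at 2.39, 2.42 and 2.81 RPM per window, with 2.14%, 2.33% and 7.69% of all bodies lower. In the cDKO all 9 log2 differences were above 0, with a median of 0.45 beside 0.13 over all bodies, 62.8% of which were above 0. With libraries centred on gene bodies, Mll1 and Kdm5b turned to -0.14 and -0.07. Kdm5a had 2.38 and 2.46 RPM per window in controls and 4.32 and 3.78 in the cDKO. It was among 7 of the 9 genes whose cDKO libraries all stood above all controls, a share that was not counted over all bodies. The log2 difference of Kdm5a, 0.71 (95% confidence interval 0.29 to 1.14), had an adjusted p of 0.051. Setd1b, whose RNA was called higher in both mutants, was at 3.36 and 2.67 in controls, 4.13 and 3.01 in the G9a cKO and 6.58 and 4.43 in the cDKO (log2 0.79, adjusted p = 0.11). In the G9a cKO 5 of the 9 were above 0, with a median of 0.04 beside 0.01. Of the 56 windows over the 9 genes none was called in either mutant when tested singly, where 1.85% and 0 of 255057 windows were called. Of the 56, 3 and 4 had an unadjusted p under 0.05, beside 19.2% and 9.0% of all windows.

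**Figure D4:**
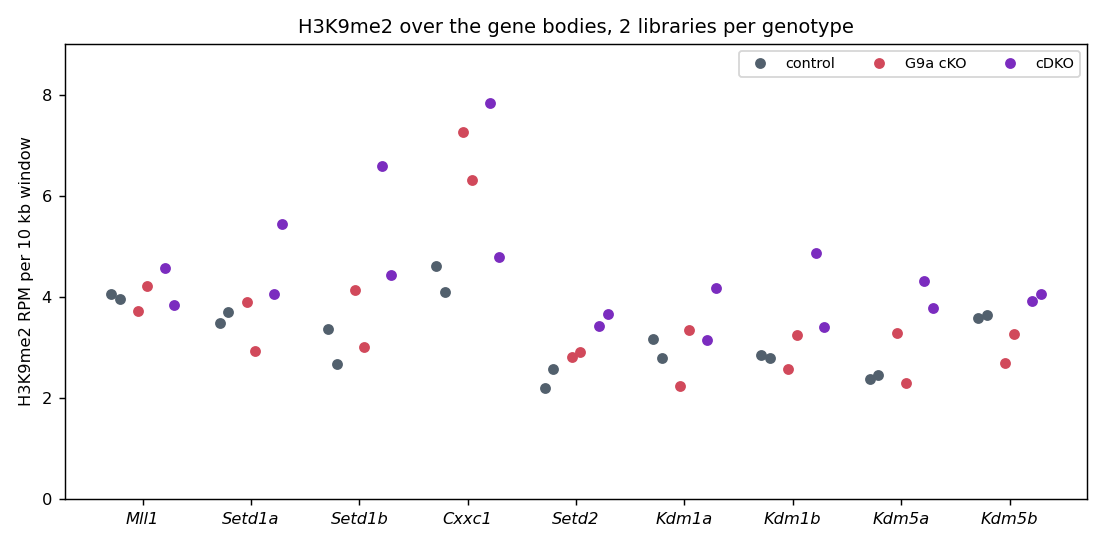
H3K9me2 density in RPM per 10 kb window over the 9 gene bodies, with a point for each of the 2 libraries of control, G9a cKO and cDKO. Mll1 has overlapping points near 4 in all 3 genotypes, and none of the 9 genes passed the test in either mutant.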

How the data were processed

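The authors deposited both tables as log2 values with 1 column per library. The unit was inferred from the values: log2 of reads per 1000000 of a library total (RPM), where loci and windows with no reads hold the value of 0.9 read. To the rounding given, 100% of values in each library came out as whole reads within 0.01. Per the submitters' processing notes, GRCm38, Trim Galore, Bowtie2, HISAT2 2.1.0 and Bismark 0.19.0 were named, with no role or order. Counting, strand and filters are not given in the sources used here. In the H3K9me2 table, 4 further columns match no sample and were not used.

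The 9 genes, the list of 40 partners and the marker lists were chosen with earlier results of these data known. The partners named were those called in a mutant, with the genes most like Mll1 and the deleted genes. Partners called between controls, the loci near Mll1 and on other strands were chosen after their values were seen.

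RNA was tested with limma 3.58.1 (R 4.3.3), 1 mean per group, trend and robust, on the log2 values of 11 libraries. The Benjamini-Hochberg adjustment of the two-sided p-values covered all 38540 loci. H3K9me2 was summed over the 10 kb windows that overlap a locus and tested as log2(RPM + 1) in 6 libraries, over bodies of at least 10 reads on average. The fits were tested on simulated data: 4-fold changes were recovered at 100% and 99% for RNA, and 2-fold changes at 60% and 46%, in the G9a cKO and cDKO comparisons. For H3K9me2 these were 94% and 97% at 4-fold and 35% and 39% at 2-fold. The simulated reads had a fixed spread between libraries that was not taken from these data. Changes were placed only in loci or bodies of at least 10 RPM. The rates therefore do not describe loci with fewer reads, such as Mll1 and Kdm5b. The alternatives changed scaling, value, spread, loci tested, controls, block and libraries. Tables and plots were made in Python 3.11.15 (pandas 2.3.3, matplotlib 3.10.9). Bisulphite, input and IgG samples were not analysed here.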

Additional observations from a re-analysis of the deposited data

Results flagged for a closer look

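Mll1 was picked out because its effect differed between the mutants by the test of the difference itself, at 5.39 log2 units (SE 1.08, limma adjusted p = 0.000318). It gave 34 and 27 reads in the cDKO and at most 2 in each of the other 9 libraries.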

How the results depend on the processing

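On log2(RPM + 1), 34 loci were called in the G9a cKO in place of 689, 1158 in the cDKO in place of 2444, 102 in the difference in place of 417, and 1.09% of loci between controls in place of 3.87%. With no trend and not robust these were 179, 1154, 82 and 0.283%. Fitting the loci of at least 10 RPM alone called 21.0% of them between controls, in place of 14.8% of them in the fit over all loci. With controls pooled the G9a cKO gave 1197. Leaving out each library in turn gave 379 to 579 in the G9a cKO, 1562 to 1922 in the cDKO, 2.65% to 3.31% between controls, and 277 to 14705 in the difference, these without GKAQ control replicates 3 and 1. The 14705 loci were more than the 9091 loci of at least 10 RPM, so they included loci with fewer reads, and the cause was not tested. The lowest G9a cKO count came without G9a cKO replicate 2 and the lowest cDKO count without cDKO replicate 1.

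Of the 6 genes, the G9a cKO count of 1 became 0 on log2(RPM + 1) and with no trend and not robust, and was 1 to 2 with a library left out, where Setd2 was added without GKAO control replicate 1. The cDKO count of 2 became 1 with centring, log2(RPM + 1), no trend and not robust or pooled controls, Setd1b being lost in each. It also became 1 among the loci of at least 10 RPM, where Mll1 was not tested, and was 1 to 2 with a GKAQ control left out. In the difference the count of 1 became 0 among loci of at least 10 RPM for the same reason, and was 1 to 2 with a library left out, Setd2 added without GKAO control replicate 1. The control count of 2 became 1 on log2(RPM + 1) and 0 with no trend and not robust. Summing loci per gene or adding the 3 genes matched by position changed none of these counts.

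Each library was also taken as its deviation from the mean of its group, over the loci of at least 10 RPM. Between GKAO controls and G9a cKO libraries these deviations correlated at 0.0113 to 0.113 where the title number was the same. Where it differed the values were -0.122 to 0.00274. Deviations cancel within a group, so these values are not independent. The labels do not say what the number marks. With that number as a replicate block, 972 loci were called in the cDKO, 805 in the G9a cKO and 543 in the difference. With the block Setd1b had log2 0.80 in the G9a cKO (adjusted p = 4.83e-05) and 0.28 between those libraries of the cDKO comparison.

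H3K9me2 gave 1877 bodies in the G9a cKO and 794 in the cDKO. Centring gave 415 in the cDKO, inner windows 520, and windows tested singly 4730 and 0. Leaving out a library gave 599 to 2677 and 0 to 187, with 599 and 606 in the G9a cKO and 126 and 187 in the cDKO without a control. Without either cDKO replicate no body was called, and 2508 and 3291 had an unadjusted p under 0.05. Centring turned the split of higher to lower calls from 1665 and 779 to 1290 and 1140 for cDKO RNA, from 264 and 153 to 210 and 251 for the difference, from 1267 and 610 to 781 and 1076 for G9a cKO H3K9me2, and from 701 and 93 to 120 and 295 for cDKO H3K9me2.

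The sign of some values that were not called turned. In the G9a cKO RNA, Mll1 was at 0.31 on log2(RPM + 1), 0.74 with precision weights and 0.04 with pooled controls, and pooling gave -0.13 for Cxxc1 and -0.05 for Setd2. In the cDKO, pooling gave 0.16 for Cxxc1 and 0.11 for Setd2, and centring -0.04 for Kdm1b. The block, which rests there on replicate 2 of each group alone, gave 0.08, 0.01, -0.02 and -0.13 for Cxxc1, Setd2, Kdm1b and Kdm5b. The Kdm5a difference was -0.73 with the block. H3K9me2 of Kdm1b in the G9a cKO was -0.11 with centring and -0.08 with inner windows, that of Setd1a 0.19 with inner windows, and in the cDKO centring gave -0.07 for Kdm5b and -0.14 for Mll1. With each library left out in turn, the RNA of Mll1 in the G9a cKO ranged from -0.51 to 0.15, Cxxc1 in the cDKO from -0.27 to 0.02, the Kdm5a difference from -0.63 to 0.63, and Kdm1b and Kdm5a between controls from -0.02 to 0.10 and from -0.98 to 0.28. H3K9me2 in the G9a cKO ranged from -0.39 to 0.17 for Kdm1a, -0.11 to 0.19 for Kdm1b, -0.07 to 0.43 for Kdm5a, -0.27 to 0.12 for Setd1a and -0.11 to 0.07 for Mll1, and in the cDKO from -0.06 to 0.19 for Mll1. The cause of these changes was not tested. Kdm5a gave 3 to 39 reads in a library, Kdm5b 2 to 18, and an H3K9me2 body of the 9 genes 10 to 71 in a mutant.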
